A study of Rattus norvegicus with 30 samples.

Results

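The 7 genes described here, *Fasn*, *Acaca*, *Acacb*, *Acly*, *Me1*, *Pgd* and *Scd*, encode enzymes that make fatty acids in the liver or supply the NADPH that this uses. They were chosen with earlier results of these data known. Each was taken by name, through the probe sets that the platform annotation assigns to it and to no other gene. On the array this gave 10 probe sets, and all 10 were bright enough to be tested, so that all 7 genes were among the 10699 genes tested. The probe set with the highest mean intensity represented a gene. *Fasn*, *Me1* and *Acaca* each had a second probe set, whose values are given as well, and 4 further probe sets that the annotation assigns to *Pgd* together with other genes were not used.

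Fatty acid synthesis starts in the cytosol, where ATP citrate lyase (*Acly*) cleaves citrate to acetyl-CoA. Acetyl-CoA carboxylase turns acetyl-CoA into malonyl-CoA, from which fatty acid synthase (*Fasn*) builds palmitate at the expense of NADPH, and stearoyl-CoA desaturase (*Scd*) then introduces a double bond into saturated acyl chains. The carboxylase encoded by *Acaca* is cytosolic and feeds synthesis, whereas that of *Acacb* sits at the mitochondrion and makes the malonyl-CoA that restrains fatty acid import for oxidation. NADPH comes in part from cytosolic malic enzyme (*Me1*) and from 6-phosphogluconate dehydrogenase (*Pgd*) of the pentose phosphate pathway. In rodent liver the genes are known as targets of the transcription factors SREBP-1c and ChREBP, and dietary protein, carbohydrate and fat all alter their mRNA levels.

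Livers came from 30 male Sprague-Dawley rats, delivered at 4 weeks of age and kept for 5 days on a commercial diet, 5 rats being given each of 6 diets for 14 days, and each liver was hybridised to 1 Affymetrix array. All diets held protein at 200 g/kg, from casein in the control (C), from soy protein (S), from freeze-dried tofu (T20), or from casein and tofu at 100 g/kg each (T10). CI and SI were the casein and the soy protein diet with an isoflavone mixture that matched the isoflavone of T20, so isoflavone was added to no other diet. The 5 C livers serve as the control of several comparisons, which are therefore not independent of each other. All 8 hepatocyte markers were above the level required for testing, whereas 3 of 8 adipocyte markers were. Arrays limit the precision by their number, and median intensity lay between 217.4 and 255.5. The labels give C replicate 3 and CI replicate 3 the same normalization parameters. The correlation between both was 0.9524, and pairs of arrays from different diets gave 0.9393 to 0.9713. T10 replicates 3, 4 and 5 stood apart in the 3-prime to 5-prime ratio of the GAPDH control probe sets, a sign of RNA quality, at 1.58, 1.51 and 1.32 against 0.97 to 1.25 on the other arrays. Their beta-actin ratios of 2.43, 2.37 and 2.35 lay within the 1.84 to 2.89 of the others.

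Because the members shifted together in several diets, the 250 bases before the RefSeq gene start (GRCr8 assembly) were searched on both strands for 4 short motifs of lipogenic promoters. Of the 7 genes, 5 had an entry in the sequence table (*Acacb*, *Acly*, *Me1*, *Pgd* and *Scd*). The 3 that hold the NF-Y motif CCAAT are shown, with CCAAT (or ATTGG on the other strand) and the Sp1 motif GGGCGG (or CCGCCC) in capitals. They are printed 5′ to 3′ in the direction of the gene, and lie on the minus strand at chr10:85963632-85963881 (Acly), chr5:164882030-164882279 (Pgd) and chr12:48138215-48138464 (Acacb).
Acly: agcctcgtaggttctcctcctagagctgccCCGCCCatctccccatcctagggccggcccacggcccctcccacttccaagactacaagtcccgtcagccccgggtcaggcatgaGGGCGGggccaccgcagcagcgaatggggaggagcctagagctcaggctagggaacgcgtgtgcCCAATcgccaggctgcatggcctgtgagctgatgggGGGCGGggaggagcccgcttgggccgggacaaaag
Pgd: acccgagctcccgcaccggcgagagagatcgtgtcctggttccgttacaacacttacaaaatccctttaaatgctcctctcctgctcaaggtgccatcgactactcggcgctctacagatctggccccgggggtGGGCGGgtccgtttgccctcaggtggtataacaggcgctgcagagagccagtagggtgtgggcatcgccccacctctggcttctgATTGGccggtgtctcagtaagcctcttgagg
Acacb: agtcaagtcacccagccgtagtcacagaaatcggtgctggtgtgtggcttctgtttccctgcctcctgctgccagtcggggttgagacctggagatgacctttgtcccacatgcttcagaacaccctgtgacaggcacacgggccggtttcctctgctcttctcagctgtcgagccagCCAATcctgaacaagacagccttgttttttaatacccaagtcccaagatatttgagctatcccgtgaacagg
Counted back from the start, the CCAAT match began at -71 in *Acly*, at -31 in *Pgd* and at -72 in *Acacb*. *Acly* held 3 matches to the Sp1 motif, *Pgd* 1, *Me1* 5 and *Acacb* and *Scd* 0. Among 33469 RefSeq promoters of the same length, 34% held CCAAT and 30.5% held GGGCGG. Neither the E-box CACGTG (5.59% of promoters) nor the sterol response element TCACNCCAC (0.974%) matched in any of the 5 windows. A match describes the letters in this window only.

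With tofu as the only protein, every one of the 7 enzymes was lower than with casein. *Fasn* and *Me1* had the largest differences among the 7, at 3.96-fold and 3.39-fold lower, *Scd* and *Acly* were 2.59-fold and 2.58-fold lower, *Acaca* 2.08-fold, *Acacb* 1.91-fold and *Pgd* 1.69-fold. For each gene all 5 T20 livers lay below every C liver. All 7 passed the test, limma with Benjamini-Hochberg adjustment over 18625 probe sets and a threshold of 0.05, whereas 2.74% of all probe sets tested were lower by the same rule. As the genes were chosen with earlier results of these data known, this and later counts beside such shares are descriptive. Groups were separated downward in 3.02% of all probe sets. The median log2 difference of the 7 genes was -1.37, and that of all probe sets -0.007. In bulk liver, fewer cells of a type and less RNA per cell cannot be told apart.

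Values below are log2 intensities for replicates 1 to 5 of a diet, and differences are on the same scale, ± SE. An array is written as its diet and replicate number, as in C 3. Where removing 1 array ended a call, those arrays are named, with the highest adjusted p that this gave. *Acly*, which supplies the acetyl-CoA, stood at 14.81, 14.84, 14.56, 14.24 and 14.73 in C and at 13.61, 13.87, 13.61, 12.83 and 12.42 in T20. The lowest T20 livers were replicates 4 and 5. The difference was -1.37 ± 0.29 (adjusted p = 0.00667, limma, n = 5 per diet). With tofu and casein mixed, *Acly* read 14.41, 13.76, 14.38, 13.44 and 13.09, so that 2 of 5 livers reached into the range of C. In S it read 14.51, 13.62, 13.08, 13.65 and 13.69, where replicate 1 alone lay within the C range. The S mean fell by 0.93 ± 0.29 (adjusted p = 0.0478, limma), a call that removing C 1, C 2, C 3, C 5, S 2, S 3, S 4 or S 5 ended (up to 0.131).

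*Acaca*, the cytosolic carboxylase, gave 12.04, 12.27, 12.29, 11.92 and 12.37 in C against 11.02, 11.11, 11.38, 11.32 and 10.76 in T20. Between the highest T20 liver and the lowest C liver lay an open interval, and the difference was -1.06 ± 0.18 (adjusted p = 0.00128, limma). Its dimmer second probe set gave -0.99 ± 0.19 (adjusted p = 0.00358). *Acacb*, the mitochondrial carboxylase, gave 8.38, 8.53, 9.27, 8.84 and 9.07 in C and 7.39, 7.86, 7.78, 8.18 and 8.21 in T20. Its difference was -0.93 ± 0.18 (adjusted p = 0.00295), and its level was near the 7.388 that a probe set had to exceed on average to be tested. To see whether both carboxylases moved by unequal amounts, the log2 difference *Acaca* minus *Acacb* was taken on each array. It was 3.23 ± 0.44 (SD, n = 5) in T20 and 3.36 ± 0.33 in C, a change of -0.12 with a 95% interval of -0.67 to 0.45. A two-sided exact permutation test gave p = 0.643, where 0.00794 is the smallest p possible.

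*Fasn*, the synthase itself, had the largest SE of the 7 genes. In C it gave 14.01, 14.23, 13.51, 13.02 and 13.49, and in T20 11.92, 11.99, 12.14, 11.18 and 11.12, a difference of -1.99 ± 0.47 (adjusted p = 0.0144, limma). The second probe set gave -2.22 ± 0.41 (adjusted p = 0.00235). In CI 4 livers read 13.58 to 14.33 and replicate 5 read 11.81, inside the T20 range. SI was wider still, with 13.89 and 14.08 in replicates 1 and 2 and 12.34, 11.43 and 11.86 in the others. The SD of *Fasn* was thus 1.20 in SI and 0.96 in CI, against 0.48 in C and 0.48 in T20. *Scd*, the desaturase, read 15.07, 14.86, 15.02, 14.72 and 15.15 in C and 12.84, 13.75, 14.06, 14.22 and 13.08 in T20. It fell by 1.37 ± 0.28 (adjusted p = 0.0055, limma), with every T20 liver beneath the C range.

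Of the NADPH enzymes, *Me1* separated the diets most clearly. It gave 13.10, 12.44, 12.51, 12.67 and 12.79 in C and 11.28, 10.80, 11.00, 10.87 and 10.76 in T20, a difference of -1.76 ± 0.19 (adjusted p = 3.09e-06, limma), the probe set ranked 2 of 18625 by p. The second probe set gave -2.27 ± 0.27 (adjusted p = 8.62e-06). *Pgd* had the smallest difference among the 7 genes and the narrowest spread. It gave 12.62, 12.70, 12.69, 12.55 and 12.60 in C and 12.04, 11.85, 12.00, 11.91 and 11.58 in T20, with a difference of -0.76 ± 0.12 (adjusted p = 0.000733) and rank 19.

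**Figure D1:**
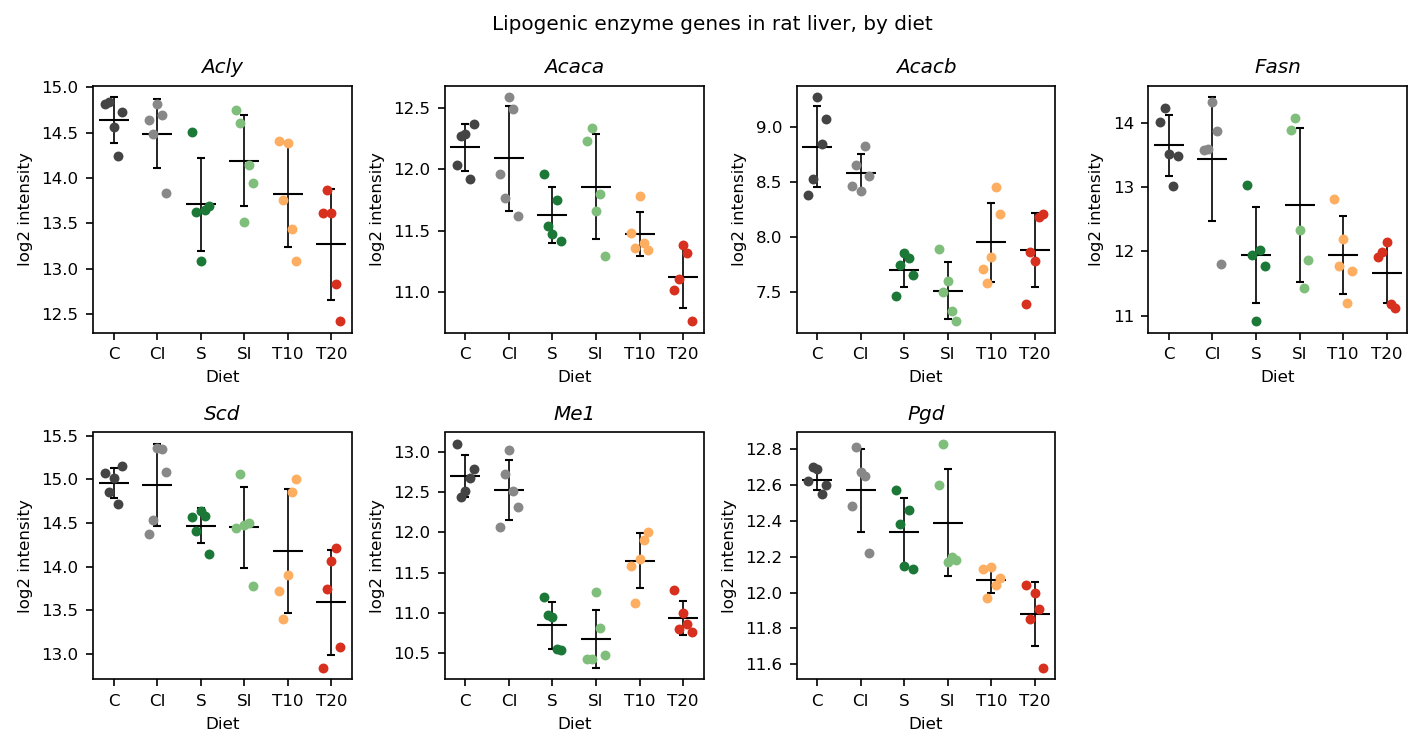
Log2 intensity (vertical axes) of the 7 enzyme genes in each of the 6 diets (horizontal axes). Points are animals, 5 per diet, and bars give the mean ± SD. In every panel the T20 points lie below all C points, and *Me1* has means of 10.68 to 10.94 in S, SI and T20.

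Leaving out any one C or T20 array kept all 7 calls, with the highest adjusted p among them at 0.0346 (*Fasn*, limma). Among markers of other cell types, the summed intensity of the 6 measured endothelial markers was 11941 to 13801 in T20 and 10849 to 12457 in C. The 6 macrophage markers summed to 15724 to 20932 in T20 and 16135 to 17862 in C, and the 8 hepatocyte markers to 424675 to 509608 against 403634 to 503768. Those of adipocytes, a lipogenic cell type, summed to 3598 to 5346 in T20 and 3617 to 4390 in C over the 7 on the array. None of the hepatocyte, adipocyte or macrophage markers above the filter passed the test in T20 against C. Higher by the same test were 1.76% of all probe sets. Of 6 tested endothelial markers 1 was higher, *Lyve1* (0.35 ± 0.10, adjusted p = 0.0404). Of 6 tested stellate cell markers 1 was higher, *Rgs5* (0.76 ± 0.13, adjusted p = 0.00103), and 1 other was lower at an unadjusted p below 0.05. Of 2 tested exocrine pancreas markers 1 was higher, *Cela1* (0.68 ± 0.19, adjusted p = 0.0351). The 7 stellate cell markers on the array summed to 16197 to 18735 in T20 and 16029 to 18338 in C. The 7 of exocrine pancreas summed to 2906 to 6411 in T20 and 2539 to 3050 in C. The call of *Rgs5* held without any C or T20 array, whereas removing C 1, C 2, C 3, C 4, C 5, T20 1 or T20 2 ended that of *Lyve1* (up to 0.143), and removing C 2, C 3, C 5, T20 1, T20 2 or T20 3 that of *Cela1* (up to 0.127). The part of these cells in the enzyme results was not tested.

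When tofu replaced only part of the casein, in T10, 3 of the 7 genes were lower than in C by the same test, against 0.193% of all probe sets. They were *Me1* at -1.05 ± 0.19 (adjusted p = 0.0062), *Acacb* at -0.86 ± 0.18 (adjusted p = 0.0215) and *Pgd* at -0.56 ± 0.12 (adjusted p = 0.027). *Me1* gave 11.58, 11.13, 11.67, 11.90 and 12.00 in T10, between C and T20 on average and below every C liver. *Pgd* gave 12.13, 11.97, 12.14, 12.04 and 12.08, also below every C liver, and *Acacb* gave 7.71, 7.58, 7.82, 8.45 and 8.21, of which replicate 4 reached into the C range. T10 and C did not overlap for *Fasn* (-1.72 ± 0.47, adjusted p = 0.134) or *Acaca* (-0.70 ± 0.18, adjusted p = 0.114) either, making 4 separated genes of 7 against 1.15% of all probe sets. *Acly* at -0.82 ± 0.29 (adjusted p = 0.316) and *Scd* at -0.78 ± 0.28 (adjusted p = 0.329) overlapped with C. The second probe set of *Fasn* did pass, at -1.88 ± 0.41 (adjusted p = 0.0332), until C 1, C 2, C 3, C 5, T10 2, T10 4 or T10 5 was removed (up to 0.128) or arrays were given equal median and spread (0.0598). The median over the 7 genes was -0.82, against -0.028 for all probe sets.

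Of the T10 calls, that of *Me1* held whichever C or T10 array was left out. Removing C 1, C 2, C 3, C 5, T10 2, T10 4 or T10 5 ended that of *Pgd*, and removing C 3, C 5, T10 1 or T10 2 that of *Acacb* (each up to 0.0954). *Pgd* also lost its call after median centring (0.0812) or equal median and spread (0.216), and *Acacb* with only the T10 and C arrays in the fit (0.184). With only these arrays *Fasn* (0.046) and *Acaca* (0.0364) did pass, so that 4 of 7 were called. Without T10 replicates 3, 4 and 5, the arrays with the high GAPDH ratio, *Me1* was -1.35 ± 0.24 and *Acacb* -1.17 ± 0.22 (adjusted p = 0.0373 for each), *Pgd* -0.59 ± 0.17 (adjusted p = 0.353) and *Scd* -1.40 ± 0.32 (adjusted p = 0.139). *Scd* itself read 13.72, 13.40 and 13.91 in T10 replicates 1 to 3 and 14.86 and 15.01 in replicates 4 and 5, the latter inside the C range.

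Going from T10 to T20, limma called 0 of the 7 genes and 0 of 18625 probe sets (0%), with 2 of 7 and 1318 of 18625 at an unadjusted p below 0.05. *Me1* had the smallest unadjusted p of the 7 (0.000668), at -0.71 ± 0.19 with a 95% interval of -1.09 to -0.33 (adjusted p = 0.353). *Scd* was -0.59 (95% interval -1.17 to -0.01, adjusted p = 0.695) and *Acly* -0.55 (-1.14 to 0.04). *Acaca* was -0.35 (-0.73 to 0.02), *Fasn* -0.27 (-1.22 to 0.69), *Pgd* -0.19 (-0.44 to 0.05) and *Acacb* -0.07 (-0.43 to 0.29). The livers of both diets overlapped for every one of the 7 genes, where 0.392% of all probe sets were separated downward, and the median was -0.35 against 0.012 for all probe sets.

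With soy protein and no added isoflavone, 4 of the 7 genes were lower than with casein, against 4.27% of all probe sets. *Me1* fell by 1.85 ± 0.19 in S (3.61-fold, adjusted p = 2.5e-07, limma) and *Acacb* fell by 1.11 ± 0.18 (2.16-fold, adjusted p = 0.000173). *Me1* read 11.20, 10.98, 10.95, 10.56 and 10.54 in S, all more than 1 log2 unit below the lowest C liver, and *Acacb* 7.46, 7.74, 7.85, 7.81 and 7.65. *Fasn* fell by 1.72 ± 0.47 (adjusted p = 0.0212), with 13.03, 11.95, 10.91, 12.02 and 11.77 in S, where replicate 1 touched the C range. Removing C 1, C 2 or S 3 ended its call (up to 0.0681). The second probe set of *Fasn* gave -1.74 ± 0.41 (adjusted p = 0.00765, limma), with every S liver below all C livers. Its call held whichever C or S array was left out (up to 0.0295). *Acly*, above, was the fourth. *Acaca* at -0.55 ± 0.18 (adjusted p = 0.0651), *Scd* at -0.49 ± 0.28 (adjusted p = 0.325) and *Pgd* at -0.29 ± 0.12 (adjusted p = 0.142) did not pass. *Acaca* passed on its second probe set, at -0.74 ± 0.19 (adjusted p = 0.0151, ended on removing S 2, 0.0675), and on the first without S 1 (0.0451). With only the S and C arrays in the fit, *Acaca* (0.0238) and *Scd* (0.0241) did pass, so that 6 of 7 were called. Separated from C were 3 genes, *Me1*, *Acacb* and *Scd*, against 4.33% of all probe sets. The median of the 7 was -0.93, and that of all probe sets -0.036.

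With isoflavone in both diets, soy protein again went with lower *Me1* and *Acacb*, and no other member passed. *Me1* read 10.43, 10.43, 11.26, 10.81 and 10.48 in SI against 12.07, 12.73, 13.02, 12.51 and 12.31 in CI, a difference of -1.85 ± 0.19 (adjusted p = 3.68e-07, limma, rank 6 of 18625). *Acacb* read 7.89, 7.50, 7.60, 7.32 and 7.23 in SI against 8.46, 8.65, 8.42, 8.83 and 8.55 in CI, a difference of -1.07 ± 0.18 (adjusted p = 0.000243). SI replicates 4 and 5 of *Acacb* were below the level required for testing. These were also the 2 genes of 7 whose groups were separated, against 6.14% of all probe sets lower and 5.43% separated downward. *Fasn* was -0.72 ± 0.47 (adjusted p = 0.332), *Scd* -0.49 ± 0.28 (0.266), *Acly* -0.30 ± 0.29 (0.536), *Acaca* -0.22 ± 0.18 (0.453) and *Pgd* -0.17 ± 0.12 (0.365). The median of the 7 was -0.49, against -0.023 for all probe sets.

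**Figure D2:**
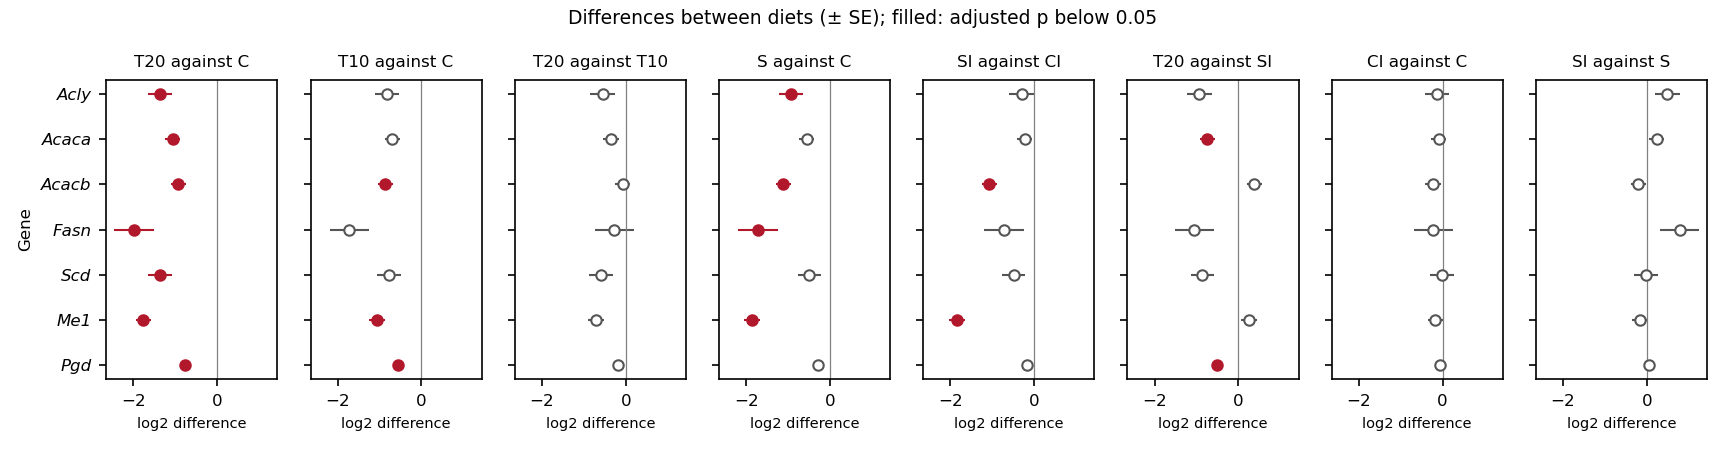
Log2 difference ± SE (horizontal axes) of each enzyme gene (vertical axis) in 8 comparisons of diets. Filled points passed limma at an adjusted p of 0.05. This holds for all 7 genes in T20 against C, for 3 in T10 against C and 4 in S against C. It holds for 2 in SI against CI and 2 in T20 against SI, and for none in T20 against T10 or the isoflavone comparisons.

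Tofu was set against the other isoflavone-matched diets to compare diets at the same isoflavone level. Any other constituent that came with the freeze-dried tofu cannot be told apart from its protein. Against CI, all 7 genes were lower in T20, against 1.04% of all probe sets. The difference was -1.59 ± 0.19 for *Me1* (adjusted p = 1.09e-05, limma), -0.69 ± 0.12 for *Pgd* (adjusted p = 0.00159), -0.97 ± 0.18 for *Acaca* (adjusted p = 0.00378) and -1.35 ± 0.28 for *Scd* (adjusted p = 0.00881). It was -1.23 ± 0.29 for *Acly* (adjusted p = 0.021), -0.70 ± 0.18 for *Acacb* (adjusted p = 0.0328) and -1.77 ± 0.47 for *Fasn* (adjusted p = 0.0414). The call of *Fasn* ended on removing CI 1, CI 2, CI 3, CI 4, T20 1, T20 2, T20 4 or T20 5 (up to 0.114). That of *Acacb* ended on removing CI 2, CI 4, CI 5, T20 1, T20 2 or T20 3 (up to 0.105), and that of *Acly* on removing CI 4, T20 4 or T20 5 (up to 0.0647). Groups were separated for 5 genes, all but *Fasn* and *Acly*, against 2.14% of all probe sets. With only the T20 and CI arrays in the fit, 3 of 7 passed.

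Against SI, the soy protein diet at the isoflavone level of tofu, 2 of 7 genes were lower in T20, against 1.87% of all probe sets. *Pgd* fell by 0.52 ± 0.12 (adjusted p = 0.0149, limma), with SI livers at 12.60, 12.83, 12.17, 12.20 and 12.18, all above the highest T20 liver at 12.04. It was the 1 separated gene, against 2.01% of all probe sets. *Acaca* fell by 0.74 ± 0.18 (adjusted p = 0.0209), with 12.23, 12.34, 11.66, 11.80 and 11.29 in SI, of which replicate 5 lay in the T20 range. Its second probe set gave -0.60 ± 0.19 (adjusted p = 0.0772). Removing SI 1, SI 2, T20 1 or T20 5 ended the call of *Acaca* (up to 0.0892), and removing SI 2 that of *Pgd* (0.0653). *Acly* at -0.93 ± 0.29 (adjusted p = 0.0696), *Scd* at -0.86 ± 0.28 (adjusted p = 0.0829) and *Fasn* at -1.05 ± 0.47 (adjusted p = 0.212) did not pass. *Acly* did pass after quantile normalization (0.0439) or median centring (0.0487), with array weights (0.0442), with the replicate block (0.0238) and without SI 3 (0.0299). *Scd* passed without T20 4 (0.0426) and without T10 replicates 3, 4 and 5 in the fit (0.0475). The 2 genes that were low in SI as well had positive differences that did not pass, *Acacb* at 0.38 (95% interval 0.02 to 0.74, adjusted p = 0.243) and *Me1* at 0.26 (-0.12 to 0.64, adjusted p = 0.479). With only the T20 and SI arrays in the fit, 0 of 7 passed.

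Isoflavone alone was examined on each protein. In CI against C the 7 differences lay between -0.23 (*Acacb*) and -0.02 (*Scd*), and limma called 0 of 7, as it called 0 of 18625 probe sets (0%), with 0 of 7 and 1605 of 18625 at an unadjusted p below 0.05. Their 95% intervals were narrow for *Pgd* (-0.31 to 0.18) and *Me1* (-0.55 to 0.21) and wide for *Fasn* (-1.17 to 0.74). In SI against S the differences ran from -0.20 (*Acacb*) to 0.78 (*Fasn*, 95% interval -0.17 to 1.74), with *Acly* at 0.49 (-0.11 to 1.08), and again 0 of 7 and 0 of 18625 (0%) were called, with 0 and 664 at an unadjusted p below 0.05. The interaction asks whether isoflavone acted differently on soy protein than on casein. It was 1.00 ± 0.66 for *Fasn*, 0.63 ± 0.41 for *Acly*, 0.33 ± 0.26 for *Acaca* and 0.12 ± 0.17 for *Pgd*, and 0.01 to 0.04 for the other 3 genes. None of the 7 passed (0 at an unadjusted p below 0.05), against 0.0161% of all probe sets.

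Over all 6 diets the moderated F test of limma called all 7 genes, against 12.9% of all probe sets. *Me1* ranked 6 of 18625 (adjusted p = 4.89e-09), followed among the 7 by *Acacb* (adjusted p = 1.86e-05), *Pgd* (0.000214), *Acaca* (0.000886), *Scd* (0.00704), *Fasn* (0.00706) and *Acly* (0.00804). The order of the diets differed between genes. *Me1* went from 12.70 ± 0.26 (SD, n = 5) in C and 12.53 ± 0.37 in CI through 11.65 ± 0.34 in T10 to 10.94 ± 0.21 in T20, 10.85 ± 0.29 in S and 10.68 ± 0.36 in SI. *Acacb* had the same order, from 8.82 ± 0.37 in C through 8.58 ± 0.17, 7.95 ± 0.36, 7.88 ± 0.34 and 7.70 ± 0.16 to 7.51 ± 0.26 in SI. *Pgd* and *Acaca* put both tofu diets last, *Pgd* with 12.07 ± 0.07 in T10 and 11.88 ± 0.18 in T20 and *Acaca* with 11.47 ± 0.18 and 11.12 ± 0.25. *Pgd* was 12.34 ± 0.19 in S and 12.39 ± 0.30 in SI, and *Acaca* 11.63 ± 0.23 and 11.86 ± 0.43. *Scd* also had its lowest means in T10 (14.18 ± 0.71) and T20 (13.59 ± 0.60), after 14.47 ± 0.20 in S and 14.45 ± 0.46 in SI. *Fasn* had equal means in S (11.94 ± 0.75) and T10 (11.94 ± 0.61), below 12.72 ± 1.20 in SI. *Acly* was 14.19 ± 0.50 in SI and 13.71 ± 0.51 in S, with T10 at 13.82 ± 0.58 and T20 at 13.27 ± 0.61. Neighbours in these orders overlapped for every gene, except CI and T10 for *Me1*, whose means lay 0.87 apart.

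Beyond the effect of diet, arrays of the same diet differed in a shared way for 4 of the genes. With 1 array per animal, differences between animals and between arrays cannot be told apart. Each value was set against the mean of its diet, and the deviations of 2 genes were correlated over the 30 arrays, with permutations within diets and adjustment over the 21 pairs. *Fasn*, *Acly*, *Acaca* and *Pgd* deviated together, with Pearson's r between 0.64 and 0.82 in all 6 pairs, and between 0.60 and 0.84 without the 2 arrays farthest out. For *Fasn* and *Pgd* r was 0.82 (Spearman's rho 0.82, adjusted p = 0.00052 and 0.00031 by permutation). For *Fasn* and *Acly* r was 0.80 (rho 0.85), each with p = 1e-05, the smallest that 100000 permutations can give, and adjusted p = 0.00021. *Acaca* followed *Fasn* at 0.72 (rho 0.70, adjusted p = 0.0014 and 0.0013 by permutation). CI replicate 5 and the SI livers show it: replicate 5 of CI was the lowest of its diet for *Fasn*, *Acly*, *Acaca* and *Pgd* alike, and SI replicates 1 and 2 were the highest of theirs. In every diet, replicate 1 lay above the diet mean for *Fasn* and *Acly*, and replicate 5 lay below it for *Fasn*. The permutations did not account for replicate number, and its part in these correlations was not tested.

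*Me1* and *Acacb*, the 2 genes lowest in SI, had no pair with these 4 genes that passed. The deviations of *Fasn* and *Me1* had r = 0.04 (rho 0.00, adjusted p = 0.88 and 0.99 by permutation), and those of *Fasn* and *Acacb* r = -0.20 (rho -0.26, adjusted p = 0.5 and 0.35). *Acacb* and *Acly* had the lowest r of all pairs, -0.42 (rho -0.46, adjusted p = 0.09 and 0.055 by permutation), and *Acacb* and *Me1* r = -0.04 (rho 0.01, adjusted p = 0.88 and 0.99). *Scd* correlated with *Acaca* at 0.49 (rho 0.46, adjusted p = 0.033 and 0.043 by permutation; 0.40 without the outermost 2 arrays) and with *Acacb* at 0.50 (rho 0.48, adjusted p = 0.051 and 0.055). In all 7 of the 21 pairs passed by either measure, and 6 had a negative r. How often pairs of other tested genes correlate within diets was not tested, so these counts have no background share.

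**Figure D3:**
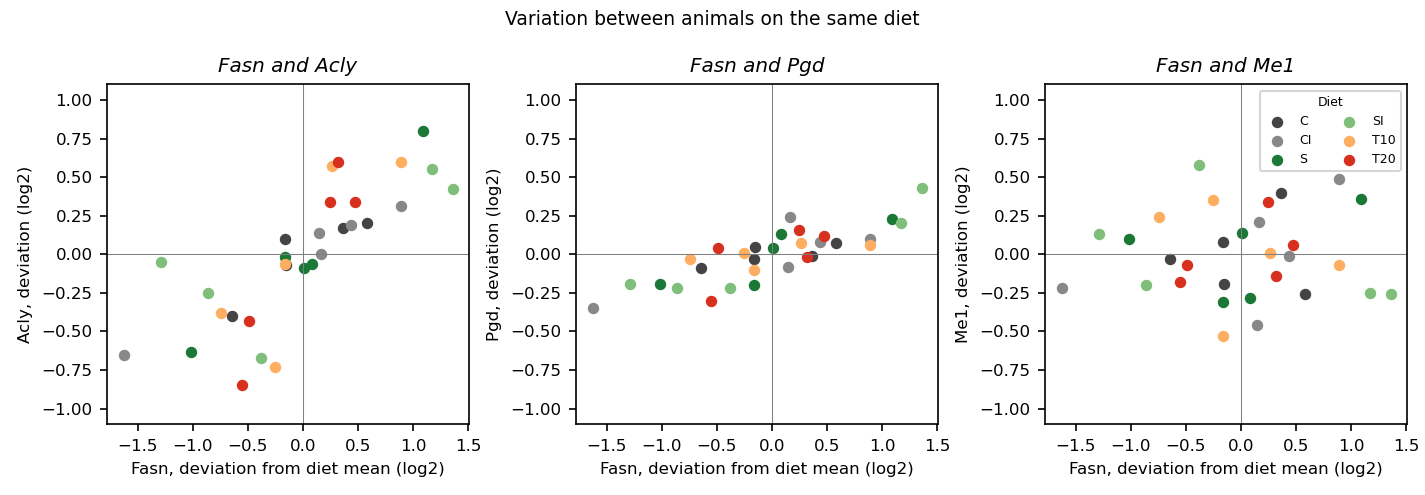
Deviation of each animal from the mean of its diet (log2), with *Fasn* on the horizontal axes and *Acly*, *Pgd* or *Me1* on the vertical axes, coloured by diet. The 30 points rise together for *Acly* (r = 0.80) and *Pgd* (r = 0.82) and show no slope for *Me1* (r = 0.04).

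**Figure D4:**
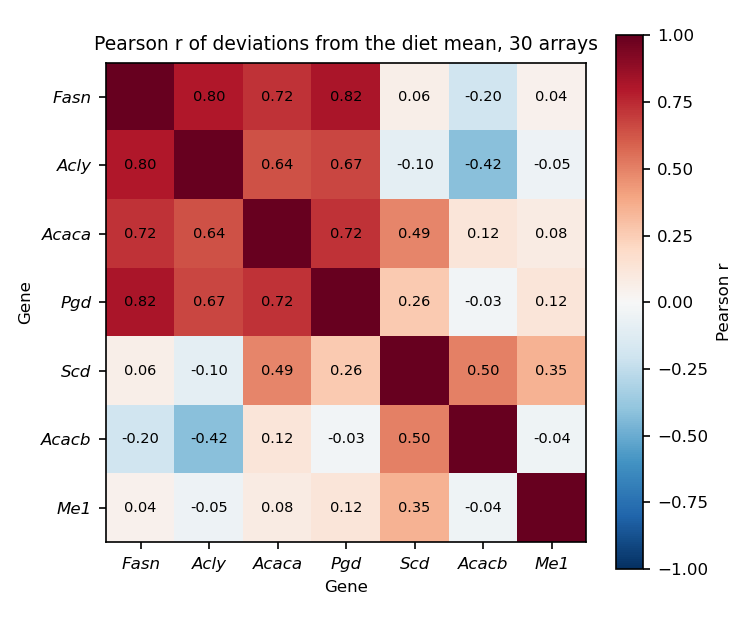
Pearson's r of deviations from the diet mean for every pair of the 7 genes over 30 arrays (colour scale from -1 to 1, values printed). The block of *Fasn*, *Acly*, *Acaca* and *Pgd* holds r of 0.64 to 0.82, and *Acacb* and *Acly* have the lowest value, -0.42.

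Among the 10692 other tested genes, *Elovl6*, the elongase that extends palmitate, had the pattern most like *Fasn*, *Acly*, *Acaca* and *Pgd* over the 30 arrays, with Pearson's r of 0.92, 0.88, 0.84 and 0.85, and was also nearest to the mean of the 7 standardised genes (0.90). These values are descriptive and hold the diet effect. Within diets they were 0.86, 0.77, 0.69, 0.78 and 0.80. The gene next to *Fasn* was *Thrsp*, a regulator of lipogenesis (0.86, within diets 0.80), next to *Acly* *Tmcc3* (0.82), and next to *Acaca* and *Pgd* *Nup205*, a nuclear pore protein (0.83 for each). For *Me1* they were *Ddhd1*, a phospholipase, and *Dbi*, the acyl-CoA binding protein (0.89 for each), whose r within diets was 0.21 and 0.37. *Uckl1* (0.83) and *Xpr1*, a phosphate exporter (0.82), were nearest to *Acacb*, and *Ubn2* (0.74) and *Slc6a9*, a glycine transporter (0.72), to *Scd*. After *Elovl6*, the mean of the 7 genes was followed by *Pnpla3* (0.86), *Smyd2* (0.82), *Secisbp2l* (0.81) and *Mapkapk5* (0.81).

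Genes around these enzymes were described by 5 lists. Among their 60 tested genes, 9 passed in T20 against C (4.5% of all probe sets did) and 11 in S against C (7.25%) by limma. In the lower direction alone, the shares of all probe sets were 2.74% and 4.27%. Of the carbon supply to cytosolic citrate and acetyl-CoA, 2 of 10 tested genes were lower in T20, *Slc25a1*, the mitochondrial citrate carrier, at -0.42 ± 0.10 (adjusted p = 0.0146) and *Pklr*, liver pyruvate kinase, at -0.51 ± 0.14 (adjusted p = 0.0368). Removing C 3 or T20 2 ended the call of *Slc25a1* (up to 0.0551), and removing C 1, C 2, C 3, C 5, T20 1, T20 2 or T20 5 that of *Pklr* (up to 0.12). Both calls also ended with equal median and spread, at -0.21 (adjusted p = 0.213) for *Slc25a1* and -0.26 (adjusted p = 0.259) for *Pklr*. In S 3 of 10 were lower, *Slc25a1* at -0.42 ± 0.10 (adjusted p = 0.00902), *Acss2*, which makes acetyl-CoA from acetate, at -0.70 ± 0.17 (adjusted p = 0.00835) and *Aco1*, cytosolic aconitase, at -0.61 ± 0.14 (adjusted p = 0.00618). The list median was -0.17 in both comparisons.

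Of 13 tested genes of NADPH supply other than *Me1* and *Pgd*, 3 were lower in T20. They were *Tkt* (transketolase) at -0.51 ± 0.13 (adjusted p = 0.0284, limma) and *Taldo1* (transaldolase) at -0.26 ± 0.07 (adjusted p = 0.046), of the pentose phosphate pathway, and *Nnt*, the mitochondrial transhydrogenase, at -0.28 ± 0.07 (adjusted p = 0.0308). Each of these calls ended on removing C 2, C 3, T20 1 or T20 2; that of *Tkt* also on removing T20 5 (up to 0.0702), that of *Taldo1* also on removing C 1, C 5 or T20 4 (up to 0.143), and that of *Nnt* also on removing C 1 or C 5 (up to 0.102). With equal median and spread none of the 3 passed, at -0.29 (adjusted p = 0.228), -0.07 (adjusted p = 0.715) and -0.05 (adjusted p = 0.793). Against SI, 2 of the 13 were lower in T20, against 1.87% of all probe sets. They were *Tkt* at -0.71 ± 0.13 (adjusted p = 0.00428, limma) and *Taldo1* at -0.40 ± 0.07 (adjusted p = 0.004). These 2 values were added after they were seen, and no array was left out for them. *Taldo1* was 0.22 ± 0.07 in S against C (adjusted p = 0.075). In S none of the 13 was lower, and 1 was higher, against 2.99% of all probe sets: *Idh2*, mitochondrial isocitrate dehydrogenase, by 0.47 ± 0.10 (adjusted p = 0.00311). *Idh2* was also higher in T20, by 0.33 ± 0.10 against C (adjusted p = 0.05, just short of the threshold). Against CI it was higher in T20 by 0.41 ± 0.10 (adjusted p = 0.0255, limma). Medians were -0.08 in T20 and -0.00 in S.

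In the list of malonyl-CoA control and desaturation, 3 of 13 were lower with each protein. *Elovl6* had -1.20 ± 0.24 in T20 (adjusted p = 0.00491, limma) and -0.93 ± 0.24 in S (adjusted p = 0.0169, ended on removing C 1 or S 3, up to 0.0579). *Fads2* and *Fads1*, the front-end desaturases of polyunsaturated fatty acids, had -0.88 ± 0.16 and -0.64 ± 0.15 in T20 (adjusted p = 0.00258 and 0.0146) and -1.02 ± 0.16 and -0.61 ± 0.15 in S (adjusted p = 0.000193 and 0.0103). After each array was given equal median and spread, *Fads1* no longer passed in T20 (-0.35, adjusted p = 0.291) or in S (-0.51, adjusted p = 0.127). *Thrsp* was -0.54 ± 0.23 in T20 (adjusted p = 0.163) and -0.49 ± 0.23 in S (adjusted p = 0.205). *Scd2*, the paralog of *Scd*, was 0.15 ± 0.12 in T20 (adjusted p = 0.531). The list medians were -0.39 and -0.40.

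Of 16 transcription factors and cofactors of lipogenesis, 1 was lower in T20. *Mlxipl*, which encodes ChREBP, had 9.84 ± 0.30 (SD, n = 5) in T20 against 10.43 ± 0.17 in C, a difference of -0.59 ± 0.12 (adjusted p = 0.0038, limma). With only the T20 and C arrays in the fit its adjusted p was 0.0679. In S it was -0.32 ± 0.12 (adjusted p = 0.0924). *Srebf1*, which encodes SREBP-1c, gave 12.65 ± 0.33 in T20, 12.49 ± 0.44 in S and 13.19 ± 0.48 in C, and passed in neither comparison (-0.54 ± 0.36, adjusted p = 0.426, and -0.70 ± 0.36, adjusted p = 0.272). In S 3 of 16 were lower, *Insig1*, which retains SREBP in the endoplasmic reticulum, at -1.51 ± 0.43 (adjusted p = 0.0283), *Mlx*, the partner of ChREBP, at -0.36 ± 0.08 (adjusted p = 0.00844) and *Thrb*, a thyroid hormone receptor, at -0.47 ± 0.10 (adjusted p = 0.00248). Removing C 2, C 3, C 5, S 1, S 3 or S 5 ended the call of *Insig1* (up to 0.0755), as did equal median and spread (0.0681). Medians were -0.17 and -0.06.

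The 8 genes of mitochondrial fatty acid synthesis, a separate pathway that makes the lipoic acid precursor, were not lower in either diet. In T20 limma called 0 of 8 (1 at an unadjusted p below 0.05, higher) with a median of 0.17, and in S 1 of 8 was higher, *Oxsm*, its ketoacyl synthase, at 0.58 ± 0.09 (adjusted p = 0.000215). In T10 against C limma called 0 of the 60 genes of the 5 lists, with 10 at an unadjusted p below 0.05, where 0.322% of all probe sets were called and 9.91% had such a p. In SI against CI 9 of 60 passed, against 11.6% of all probe sets. Of these 6 were lower (*Pdha1*, *Insig2*, *Mbtps2*, *Thrb*, *Prkaa2* and *Fads2*) and 3 higher (*Mcat*, *Oxsm* and *Idh2*), against 6.14% and 5.5%. *Fads2* was -1.16 ± 0.16 (adjusted p = 4.33e-05), *Oxsm* 0.44 ± 0.09 (adjusted p = 0.00305) and *Idh2* 0.63 ± 0.10 (adjusted p = 0.000142). Removing 1 array ended the calls of *Pdha1* (CI 3, CI 4, CI 5, SI 2 or SI 4, up to 0.0726), *Mbtps2* (CI 3, CI 4, CI 5, SI 2, SI 3 or SI 5, up to 0.155), *Insig2* and *Thrb* (SI 4, 0.0523 and 0.0543).

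**Figure D5:**
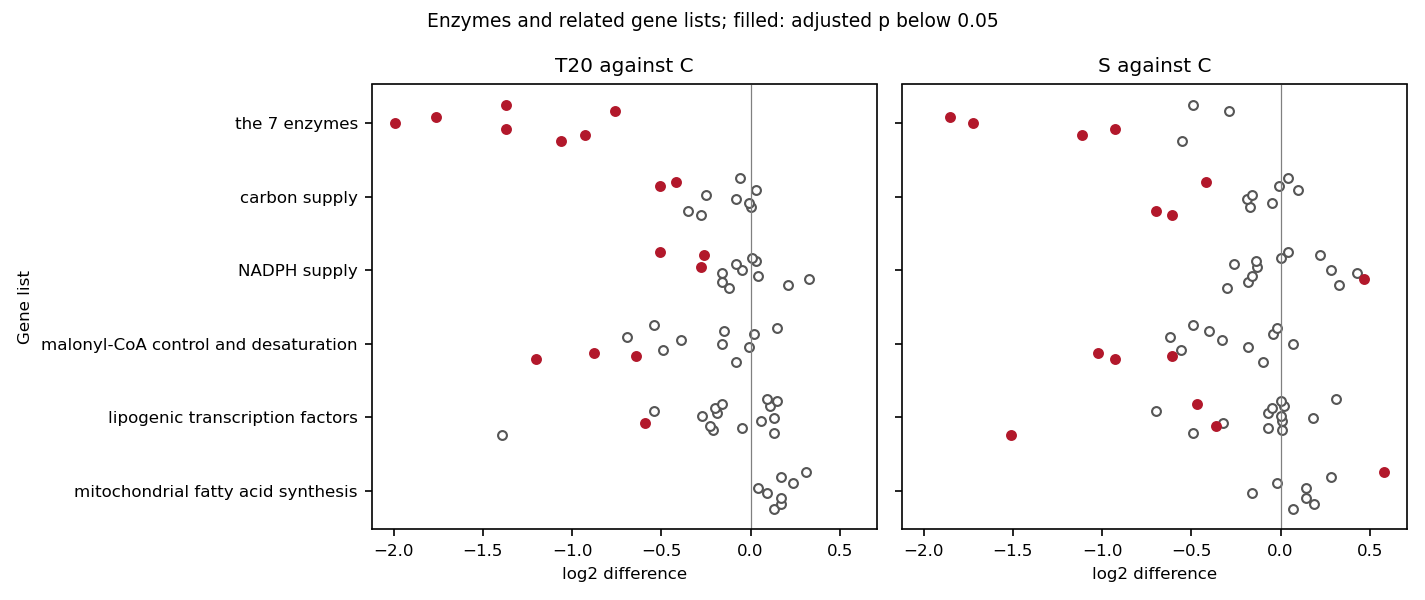
Log2 difference (horizontal axes) of the 7 enzyme genes and of the genes of 5 related lists (vertical axis), in T20 against C and S against C; filled points passed limma at an adjusted p of 0.05. The 7 enzymes lie between -1.99 and -0.76 in T20, while the medians of the 5 lists lie between -0.39 and 0.17. Single list genes lie within the range of the enzymes in T20, such as *Elovl6* at -1.20 and *Fads2* at -0.88.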

How the data were processed

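Liver RNA of 30 rats was hybridised as biotin-labelled cRNA, 1 array per animal, per the labels' protocols. The deposited table holds a linear intensity for each probe set on each array, which the authors had normalized between arrays with SuperNORM, per the labels. The reference level of that scale is not known. Of 31099 probe sets, 57 controls were left out. Values under 16 were set to 16 before taking log2; 18625 probe sets with a mean above the 40th percentile (7.388, intensity 167.6) were tested. Names came from the platform annotation: 20826 probe sets have 1 symbol, 436 several and 9780 none, and 20764 matched a current record.

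limma 3.58.1 (R 4.3.3) fitted 1 mean per diet over all arrays (24 residual degrees of freedom, mean-variance trend, two-sided), with Benjamini-Hochberg adjustment within each of 10 comparisons and the F test, and a threshold of 0.05. Permutations used scipy 1.17.1 under Python 3.11.15, and figures matplotlib 3.10.9. Named were all 7 members by their brightest probe set, list genes passing in T20 or S against C with *Srebf1*, *Mlxipl* and *Thrsp*, and for each member the 2 genes of highest Pearson's r (5 for the mean of the 7); markers of other cell types that passed in T20 against C, *Scd2*, and the genes given for SI against CI were added after their values were seen. The members and lists were chosen with earlier results of these data known. On simulated data with 18625 probe sets, the T20 against C test recovered 53.7% of 1.5-fold, 88.1% of 2-fold and 100% of 4-fold changes. Alternatives covered scaling, floor, filter, variance trend, array weights, probe sets per gene, samples in the fit, replicate block and arrays left out; arrays left out and scalings for markers, second probe sets and lists in SI against CI were added after seeing the data. The labels call the arrays biological replicates.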

Additional observations from a re-analysis of the deposited data

How the results depend on the processing

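The T20 against C count of 7 was within 1.5 times of 7 under every alternative run (6 under the 60th percentile filter, where *Acacb* was not tested), and *Me1* was lower in S and SI throughout. Of the 7 members, called counts moved by over 1.5 times in 5 cases: T10 against C fell from 3 to 1 without C replicate 3 and CI replicate 3, SI against CI from 2 to 1 under the 60th percentile filter, T20 against CI from 7 to 3 with only the compared groups, and T20 against SI from 2 to 1 after equal median and spread and to 0 with only the compared groups. The cause was not tested, except that the filter removed *Acacb*. Leaving out 1 array gave 1 to 3 in T10 against C (1 without C replicate 3 or 5 or T10 replicate 2), 2 to 5 in S against C (2 without C replicate 1 or 2 or S replicate 3), 4 to 6 in T20 against CI and 0 to 3 in T20 against SI (0 without SI replicate 2), and left T20 against C at 7, SI against CI at 2 and the F test at 7. Replicate numbers were not taken to pair the animals. Deviations from the diet mean on same-numbered arrays correlated at 0.01 to 0.09 in T20 against C. The range was -0.01 to 0.31 in S against C, -0.01 to 0.25 in SI against CI and 0.01 to 0.35 in T20 against T10. In no comparison did every pair exceed 0.1, but 3 pairs did in S against C and 3 in SI against CI. What same-numbered arrays share was not tested. With the replicate block, 7 passed in T20 against C, 4 in T10 against C (*Fasn* added, adjusted p = 0.0366, limma), 5 in S against C, 2 in SI against CI, 7 in T20 against CI and 3 in T20 against SI.

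Signs turned only in differences that were not called. Without T10 replicates 3, 4 and 5, T20 against T10 became 0.24 for *Acacb* and 0.03 for *Scd*. After equal median and spread, CI against C became 0.03 for *Acaca*, 0.09 for *Acly*, 0.07 for *Pgd* and 0.22 for *Scd*, the interaction -0.11 for *Me1*, -0.00 for *Pgd* and -0.22 for *Scd*, and *Acaca* minus *Acacb* 0.05. *Scd* in SI against S became 0.00 with median centring and 0.02 with array weights; its interaction became -0.03 with quantile normalization, that of *Me1* -0.04 with array weights and that of *Acacb* -0.11 without C replicate 3 and CI replicate 3. Median centring moved the median interaction of all probe sets to 0.108; other medians stayed within 0.1 of 0. Leaving out 1 array gave -0.16 to 0.05 for *Acacb* in T20 against T10; in CI against C -0.44 to 0.19 for *Fasn*, -0.22 to 0.03 for *Acaca*, -0.24 to 0.02 for *Acly*, -0.13 to 0.02 for *Pgd* and -0.13 to 0.12 for *Scd*; in SI against S -0.05 to 0.11 for *Pgd* and -0.17 to 0.15 for *Scd*; in the interaction -0.07 to 0.15 for *Acacb*, -0.14 to 0.13 for *Me1* and -0.15 to 0.17 for *Scd*; and -0.22 to 0.05 for *Acaca* minus *Acacb*. Among single genes, 1332 alternative values kept sign and call, 52 lost and 12 gained the call.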
